A study of Homo sapiens with 10 samples.

Results

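Colony BR16 of the thyroid cancer line TPC-1, grown out of cells kept in the RET inhibitor BLU667, was compared gene by gene with parental TPC-1 cells that had received BLU667 for 24 h. Of the 58735 genes in the expression table, 12801 had an FPKM (a read count scaled to the length of the gene and the size of the library) of at least 1 in at least 2 of the 4 libraries of this pair, and these are the genes described, 10797 of them protein-coding. BR16 differed from the 24 h cells in 7970 of them (62.3%), with 4325 (33.8%) higher and 3645 (28.5%) lower. A gene counts as changed at a limma p below 0.05 after Benjamini-Hochberg adjustment over all 13927 genes tested. Genes that copy DNA and drive mitosis, low after 24 h of drug, were higher in BR16 but mostly below their level without drug. Several targets of ERK signalling rose too. A set of secreted and transport genes that was high at 24 h was lower in BR16, and genes such as MAL2, NOV, CADM1 and EDN2 were high in the colony.

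TPC-1 was established from a human papillary thyroid carcinoma, and its CCDC6-RET fusion is shared by every group. BLU667, also named pralsetinib, blocks the kinase activity of RET. Parental cells were given DMSO, the solvent, or BLU667 at 5 µM, each for 24 h. The colonies BR8, BR10 and BR16 came from culture in 5 µM BLU667, for more than 50 days per the sample labels and more than 5 months per the series design. Each group has 2 libraries, called biological replicates in the series design, and those of a colony come from that 1 colony, so the p-values measure the spread between libraries and not between colonies. The length of exposure and the choice of 1 colony differ together between BR16 and the 24 h cells, and their shares in a difference cannot be told apart.

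The CCDC6-RET fusion joins the RET kinase domain to a partner that makes it dimerise without ligand, and the active kinase feeds the RAS-RAF-MEK-ERK and PI3K-AKT pathways. ERK induces cyclin D1, transcription factors of the FOS and EGR families, and brakes on itself such as dual-specificity phosphatases. Cyclin D with CDK4 and CDK6 phosphorylates RB, which releases E2F factors to transcribe the genes of DNA replication, while genes of mitosis carry a CHR element bound by the DREAM and MYBL2-FOXM1 complexes. When AKT is inhibited, FOXO factors enter the nucleus and induce inhibitors of the cell cycle.

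RET itself, the target of the drug, had FPKM values of 6.90 and 6.92 in DMSO, 8.52 and 9.34 after 24 h of BLU667 and 8.04 and 7.94 in BR16. The BR16 values lie below both 24 h values, but the log2 difference of -0.14 ± 0.07 (SE) did not pass the test (limma adjusted p = 0.126), although with the GC trend of each library removed, as explained below, it was -0.37 (limma adjusted p = 0.00339). These values count reads over the whole gene and do not separate the fusion from other transcripts. CCDC6, the fusion partner, was at 1.06 and 0.898 in BR16 and 0.340 and 0.368 after 24 h, and was not tested, as too few libraries reached the filter. TERT, the telomerase subunit, was at 1.59 and 1.5 in DMSO, 0.0494 and 0.163 after 24 h and 0.549 and 0.490 in BR16, below the level at which genes are described.

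The differences spanned -5.78 to 6.08 on the log2 scale of FPKM + 1, a scale that understates changes of low genes. Of the described genes 2349 (18.4%) changed by at least 2-fold, 1485 (11.6%) higher and 864 (6.75%) lower. Over all 13927 genes tested, 58.7% changed, 32.1% higher and 26.7% lower, and 17.1% by at least 2-fold, 10.8% higher and 6.31% lower. The libraries of BR16 and the 24 h cells did not overlap in 84.9% of described genes, so a gap between groups is common here. Counts for gene lists below are read against these shares. The lean to higher among changed described genes depended on the scaling. With quantile normalization, which gives every library the same spread of values, 3838 were higher and 4236 lower. With the GC trend of each library removed, 4205 were higher and 3925 lower.

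The libraries held between 15243703 and 21904245 reads in genes, and log2 values of replicates correlated across genes at 0.978 (DMSO) to 0.989 (BR16). Of the described genes, 691 reached the filter only through BR16 and 686 only through the 24 h cells, so those genes had to differ. This holds for every described gene named below with both values under an FPKM of 1 in either group. It also holds for some members counted in the lists below. Receptor ligands, NF-kB targets and NRF2 targets held 3 each. Negative regulators of RAS and PI3K signalling, ATF4, glycolysis, interferon, mesenchymal, protease, TGF-beta, Wnt and YAP genes held 2 each. FOXO, IL6, epithelial, matrix, Notch, histone and fibroblast genes held 1 each. The libraries are not strand-specific, and 4762 described genes overlap another tested gene, whose reads cannot be told apart from theirs. Of genes named below, ABCA1, CDKN1B, HERPUD1, HK2, NF1, S100A6, TJP1 and TXNRD1 are uncertain on that account, as are those said to overlap another gene. Immune, endothelial and erythroid markers had 0 described members of 9, 7 and 6. Of 18 thyroid differentiation genes 4 were described (PAX8, FOXE1, HHEX and GLIS3), and the defining thyroid genes TG, TSHR, SLC5A5 and NKX2-1 were not. Differences also moved with the GC content of transcripts. Over genes, the rank correlation with GC content was 0.34 for BR16 minus the 24 h cells, but it was also 0.62 for the difference between the 2 DMSO libraries, -0.45 for that between the BR10 libraries, and 0.06 and -0.12 for the 24 h and BR16 pairs. With described genes split by GC content into 10 bins of equal size, the lowest bin (median 36.5%) had a median log2 difference between BR16 and the 24 h cells of -0.29 and the highest (63.7%) one of 0.57, against 0.04 over all described genes. The part of GC content in any 1 gene's difference was not tested, but each library's GC trend was also removed, and values are given where that changed the call of a named gene or moved its value by over 1.5 times.

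**Figure D1:**
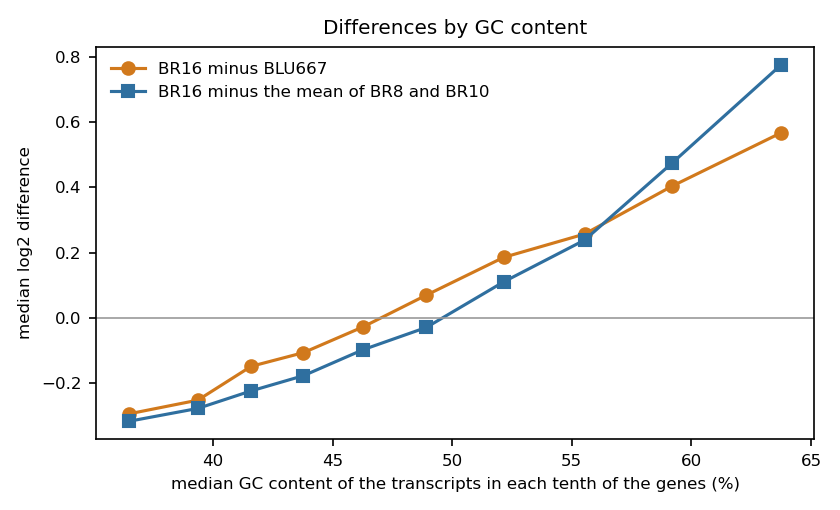
Median log2 difference (y axis) in each of 10 bins of the described genes, ordered by the GC content of their transcripts (x axis, percent), for BR16 minus the 24 h BLU667 libraries (orange) and BR16 minus the mean of BR8 and BR10 (blue). Both lines climb with GC content, from -0.29 to 0.57 and from -0.32 to 0.77.

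All 36 genes on a list of S phase and mitosis genes were described, and all 36 were higher in BR16 than after 24 h of BLU667, with a median log2 difference of 2.67 against 0.04 for all described genes. Of the 36, 14 reached the filter through BR16 alone and so had to be higher. None stood above the untreated level: against DMSO 35 of the 36 were lower and 0 higher, with a median of -1.20. CCNE1, cyclin E1, was the exception, with a log2 difference from DMSO of 0.02 (limma adjusted p = 0.945). Of all described genes 47.2% differed from DMSO, 24% lower and 23.2% higher (45.5% of all genes tested, 23.6% lower and 21.9% higher). Bulk RNA cannot tell fewer cycling cells from less of these transcripts in each cell.

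MYBL2, a transcription factor of the G2 and mitosis program, had the largest rise of the list. Its FPKM was 83.2 and 70.2 in DMSO, 0.532 and 0.394 after 24 h and 39.8 and 39.8 in BR16. Both BR16 libraries stand between the other groups without overlap, with a log2 difference from the 24 h cells of 4.80 ± 0.12 (limma adjusted p = 1.91e-07). E2F1, the factor that RB holds, had 17.1 and 16.4 in DMSO, 0.136 and 0.230 after 24 h and 13.7 and 11.4 in BR16, a difference of 3.51 ± 0.13. MKI67, the proliferation antigen Ki-67, had 66.7 and 66.0, 0.621 and 0.723 and 21.2 and 18.1 in the same order, so that BR16 stood well above the 24 h cells and well below DMSO. Factors of chromatin and nucleotide supply outside or on the list moved likewise. ASF1B, a histone chaperone, went from 0.197 and 0.275 after 24 h to 21.0 and 20.4 in BR16 (4.13 ± 0.11). RRM2, the ribonucleotide reductase subunit that makes deoxynucleotides, went from 0.534 and 0.476 to 19.1 and 18.5 (3.72 ± 0.14), and the zinc finger gene ZNF367 from 0.327 and 0.347 to 16.5 and 14 (3.6 ± 0.10). The untreated level of ZNF367 was 17.0 and 19.4, from which BR16 differed by -0.24 (limma adjusted p = 0.0734). TOP2A, topoisomerase II, which overlaps a small RNA gene, reached 42.9 and 38.9 in BR16 from 1.47 and 3.50 after 24 h, against 123 and 163 in DMSO. The smallest rise of the list was that of MCM7, a subunit of the replication helicase, from 5.98 and 5.98 to 13.7 and 13.1 (1.05 ± 0.11), and this gene overlaps AP4M1.

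Promoters of the list were read from RefSeq (GRCh38.p14), which matched 28 of the 36 genes. Windows from 250 bases before to 50 after each start were searched on both strands for an E2F motif (TTTGGCGC, TTTCCCGC, TTTGCCGC or TTTCGCGC, which can overlap when read on opposite strands) and for the CHR core TTTGAA. The E2F motif was in 12 of the 28 (42.9%), against 6.86% of the 8941 described genes with a promoter and 3.99% of all 27305 genes in the table. The CHR core was in 10 of the 28 (35.7%), against 13.1% of described genes and 18.2% of all genes. Such matches are letters in a window and no evidence of binding. The 200 bases before the start are shown for 2 genes with E2F motifs and for 2 with CHR cores, with the motif in capitals.
E2F1, chr20:33686386-33686585, minus strand: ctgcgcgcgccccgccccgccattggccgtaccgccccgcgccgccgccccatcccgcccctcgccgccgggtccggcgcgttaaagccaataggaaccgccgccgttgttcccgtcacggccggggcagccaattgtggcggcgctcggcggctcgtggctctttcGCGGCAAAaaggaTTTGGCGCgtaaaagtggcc
MCM6, chr2:135876444-135876643, minus strand: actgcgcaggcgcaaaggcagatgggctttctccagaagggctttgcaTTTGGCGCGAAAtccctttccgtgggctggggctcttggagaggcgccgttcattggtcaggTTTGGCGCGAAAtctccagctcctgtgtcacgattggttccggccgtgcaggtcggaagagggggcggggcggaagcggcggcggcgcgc
MKI67, chr10:128126424-128126623, minus strand: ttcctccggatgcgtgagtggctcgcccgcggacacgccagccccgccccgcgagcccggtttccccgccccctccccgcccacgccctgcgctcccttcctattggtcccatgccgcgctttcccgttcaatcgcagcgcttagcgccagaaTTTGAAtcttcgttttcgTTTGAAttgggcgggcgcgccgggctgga
PLK1, chr16:23678689-23678888, plus strand: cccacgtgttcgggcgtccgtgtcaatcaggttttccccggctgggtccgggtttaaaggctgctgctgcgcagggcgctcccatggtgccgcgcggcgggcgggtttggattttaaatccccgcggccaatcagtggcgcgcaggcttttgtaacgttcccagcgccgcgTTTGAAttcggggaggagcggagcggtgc
In the E2F1 stretch the 2 motifs lie side by side next to the start, 1 on each strand. MCM6, another helicase subunit, has 2 copies of a site in which E2F motifs on opposite strands overlap, and its FPKM was 6.46 and 7.59 after 24 h and 21.4 and 19.7 in BR16 (1.43 ± 0.10). PLK1, the polo-like kinase of mitotic entry, has 1 CHR core close to the start, where MKI67 has 2, and went from 1.0 and 1.0 to 12.9 and 12 (2.74 ± 0.09).

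Genes induced by ERK signalling were mostly higher too. Of 26 on the list 16 were described, and 13 were higher and 3 lower in BR16 (10 and 1 without either BR16 library), with a median log2 difference of 0.97, beside 33.8% higher and 28.5% lower among all described genes. Of the 16, 2 (DUSP6 and ETV5) reached the filter through BR16 alone and so had to be higher. Against DMSO 3 were higher and 9 lower. CCND1, cyclin D1, had 104 and 108 in DMSO, 3.99 and 3.80 after 24 h and 69.9 and 69.2 in BR16, so both BR16 libraries were far above the 24 h cells (3.85 ± 0.09, limma adjusted p = 1.91e-07), and the gene overlaps LTO1. FOSL1, the AP-1 subunit FRA1, had 221 and 169.8, 5.93 and 2.74 and 52.6 and 50.3 in that order (3.36 ± 0.26). ETV5, an ETS factor, had 19.8 and 21.6, 0.176 and 0.218 and 2.47 and 2.44. BR16 thus stood at a small part of the untreated level (1.53 ± 0.08 against the 24 h cells, -2.65 against DMSO).

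The feedback inhibitors of ERK stood between the 24 h and the untreated level or close to the latter. DUSP6, the phosphatase specific for ERK, had 7.04 and 5.75 in DMSO, 0.135 and 0.0621 after 24 h and 1.34 and 1.48 in BR16 (1.14 ± 0.12). DUSP5, its nuclear relative, was at 18.5 and 19.1 in BR16 against 21.2 and 19.4 in DMSO and 6.80 and 3.87 after 24 h. SPRY2, a Sprouty inhibitor of receptor signalling, was at 4.26 and 4.36 in BR16, little above 3.44 and 2.63 after 24 h and below 18.6 and 17.8 in DMSO. The immediate-early factor EGR1 exceeded both other groups, at 11.1 and 11.3 in BR16, 2.81 and 1.03 after 24 h and 2.73 and 2.44 in DMSO (2.14 ± 0.26 against the 24 h cells). LIF, a cytokine of the IL6 family that overlaps AC004264.1, did so too, at 29.1 and 27.2, 7.19 and 7.0 and 12.2 and 8.94. PHLDA1 (-0.65), EPHA4 (-0.49) and IER3 (-0.41) were the 3 members lower in BR16 than after 24 h. The calls of SPRY2 (0.26 to 0.42) and EPHA4 (-0.32 to -0.50) were lost with the second 24 h library or either BR16 library left out. That of IER3 (-0.34 to -0.41) was lost with the first 24 h library or either BR16 library left out.

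**Figure D2:**
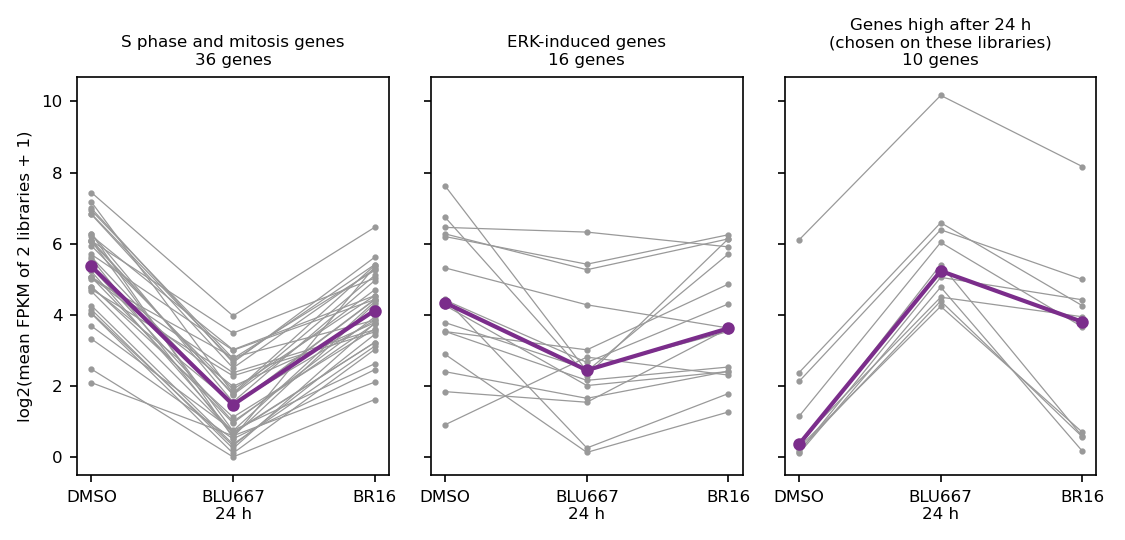
Mean level of each gene (grey lines; y axis, log2 of mean FPKM + 1 over 2 libraries) in DMSO, after 24 h of BLU667 and in BR16, for described genes of 3 lists, with the list median in purple. S phase and mitosis genes are low at 24 h and mostly lie between the 24 h and DMSO levels in BR16, and ERK-induced genes do so less evenly. The 10 genes chosen for being high at 24 h are lower in BR16 by differing amounts.

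CDK inhibitors were divided. Of 10 CDK inhibitor and pocket protein genes, all described, 4 were higher and 6 lower in BR16 than after 24 h. CDKN1B, which encodes p27, had 24.4 and 22.3 in DMSO, 74.2 and 77.4 after 24 h and 25.6 and 27.3 in BR16 (-1.48 ± 0.08), and the BR16 values are close to those of DMSO. CDKN1C, which encodes p57, had 3.46 and 2.83, 60.7 and 49.2 and 19.6 and 25.8, so BR16 was below the 24 h cells and above DMSO. CDKN2A, the locus of p16 and ARF, had 57.9 and 47.5, 54.9 and 57.2 and 25.6 and 26.5 (-1.08 ± 0.13, limma adjusted p = 0.000192), below both parental groups. CDKN1A, the p53 target p21, was higher by 0.56 ± 0.13, or 0.23 with the GC trend removed.

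Of 12 described genes induced by FOXO factors 9 were lower and 3 higher, with a median of -0.54. TP53INP1, a stress-induced regulator of autophagy, had 38.1 and 41.2 after 24 h and 8.92 and 8.50 in BR16, against 6.90 and 7.17 in DMSO (-2.07 ± 0.12), and overlaps NDUFAF6. CCNG2, a cyclin linked to cell cycle exit, went from 29.5 and 36.4 to 10.1 and 10.6 (-1.57 ± 0.12). GADD45A, a DNA damage and stress gene on the same list, went the other way, from 6.43 and 5.78 after 24 h to 41.8 and 38.1 in BR16 (2.53 ± 0.12), and its DMSO values of 15.1 and 11.7 lie between. Targets of p53 were mixed, with 8 of 19 described higher and 6 lower.

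The BCL2 family, which decides between survival and mitochondrial cell death, had 13 of 16 described members higher and 2 lower. Of the 16, 3 reached the filter through 1 group alone, BMF and BIK among them, so the direction of their change was fixed. The 2 lower ones, BMF and BCL2L11, encode BH3-only proteins that trigger cell death. BMF had 0.188 and 0.104 in DMSO, 16.3 and 23.5 after 24 h and 0.531 and 0.445 in BR16 (-3.79 ± 0.16, limma adjusted p = 1.24e-06). BCL2L11, which encodes BIM and overlaps MIR4435-2HG, had 1.97 and 2.07, 8.48 and 8.35 and 3.17 and 3.70. Among the higher members were survival and killer genes alike. BCL2 had 1.6 and 1.85 after 24 h and 6.54 and 6.13 in BR16 (1.43 ± 0.09). BCL2L1, which encodes BCL-XL and overlaps ABALON, had 25.8 and 22.7 and 60.0 and 58.5 (1.26 ± 0.15), and the killer BIK had 0.775 and 0.302 and 6.53 and 7.86 (2.43 ± 0.25).

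Genes high at 24 h and low in BR16 made up most of the largest falls. SERPINF2, the plasmin inhibitor alpha-2-antiplasmin, had 0.230 and 0.242 in DMSO, 35.6 and 47.7 after 24 h and 0.498 and 0.504 in BR16 (-4.81 ± 0.13, limma adjusted p = 2.90e-07). The folate receptor gene FOLR1 had 0.196 and 0.230, 16.0 and 19.8 and 0.710 and 0.547, and the dipeptidase gene DPEP1 had 0 and 0, 11.6 and 11.9 and 0 and 0.165. SLC47A2, an exporter of organic cations, had 0.935 and 0.775, 14.1 and 14.1 and 0.120 and 0.0168. These genes reached the filter through the 24 h cells alone and so had to be lower in BR16. In them BR16 and DMSO were both near 0 and the 24 h cells stood alone. KCNJ13, a potassium channel gene inside GIGYF2 (-4.60), and LTB, lymphotoxin beta (-3.23), had the same order, as did ESPN, an actin bundler that overlaps TNFRSF25 (-3.30). CYBRD1, a ferric reductase, went from 77.2 and 65.8 to 5.61 and 4.95 (-3.53 ± 0.09). STEAP1, of a family of metalloreductases, went from 13.4 and 10.8 to 0.189 and 0.486 (-3.29 ± 0.15). STEAP1 too reached the filter through the 24 h cells alone. A list of 10 such genes was taken from an earlier reading of these same libraries and so is no independent evidence. All 10 were lower in BR16, and 4 of them reached the filter through the 24 h cells alone. Against DMSO 7 of the 10 were higher in BR16. EDN1, endothelin 1, fell from 28.3 and 36.2 to 19.6 and 21.3 (-0.62 ± 0.16) where DMSO had 0.133 and 0.0933. That call was lost without the second 24 h library (-0.45) or the first BR16 library (-0.57). CD24, a surface glycoprotein, had 66.7 and 69.4 in DMSO, 1129 and 1169.8 after 24 h and 287 and 287 in BR16 (-2.0 ± 0.08). In BR16 both EDN1 and CD24 were thus well above the untreated level.

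A different group was higher in the colony than in both parental groups. MAL2, a protein of transcytosis in epithelial cells, had 0.220 and 0.147 in DMSO, 0.629 and 1.22 after 24 h and 129 and 127 in BR16, the largest rise (6.08 ± 0.13, limma adjusted p = 1.84e-07), and overlaps MAL2-AS1. BR8 had 137 and 141 and BR10 0.992 and 1.08, so MAL2 was high in 2 of the 3 colonies. NOV, the matricellular protein CCN3, had 0.191 and 0.366 after 24 h and 59.9 and 60.9 in BR16 (5.59 ± 0.09), with 61.3 and 58.8 in BR8 and 27.1 and 27.8 in BR10. CADM1, a cell adhesion molecule, had 0.0928 and 0.183 and 21.5 and 21.8 (4.32 ± 0.08), with 15.4 and 16.9 in BR8 and 12.7 and 11.7 in BR10. NOV and CADM1 were thus above the parental libraries in each colony library. EDN2, endothelin 2, had 0.296 and 0.154 in DMSO, 9.26 and 9.34 after 24 h and 132 and 142 in BR16 (3.74 ± 0.11), with 98.9 and 79.3 in BR8 and 14.3 and 14.3 in BR10. SFN, the 14-3-3 protein sigma, had 0 reads after 24 h and 12.5 and 10.6 in BR16, at least 178-fold higher in BR16 when 3 reads over the group are taken as the limit.

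The reverse, a gene on in both parental groups and off in the colony, was seen for MT1E and PDPN. MT1E, a metallothionein that binds zinc and copper, had 11.4 and 19.0 in DMSO, 48.7 and 59.5 after 24 h and 0 reads in BR16, at least 645-fold lower than at 24 h, and was at 0 in BR8 and BR10 too. Metallothionein genes are near-identical copies among which reads can be split. PDPN, podoplanin, had 24.6 and 26.4 in DMSO, 11.5 and 10.5 after 24 h and 0 reads in BR16, at least 461-fold lower, while BR8 had 1.49 and 2.21 and BR10 1.20 and 1.5.

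**Figure D3:**
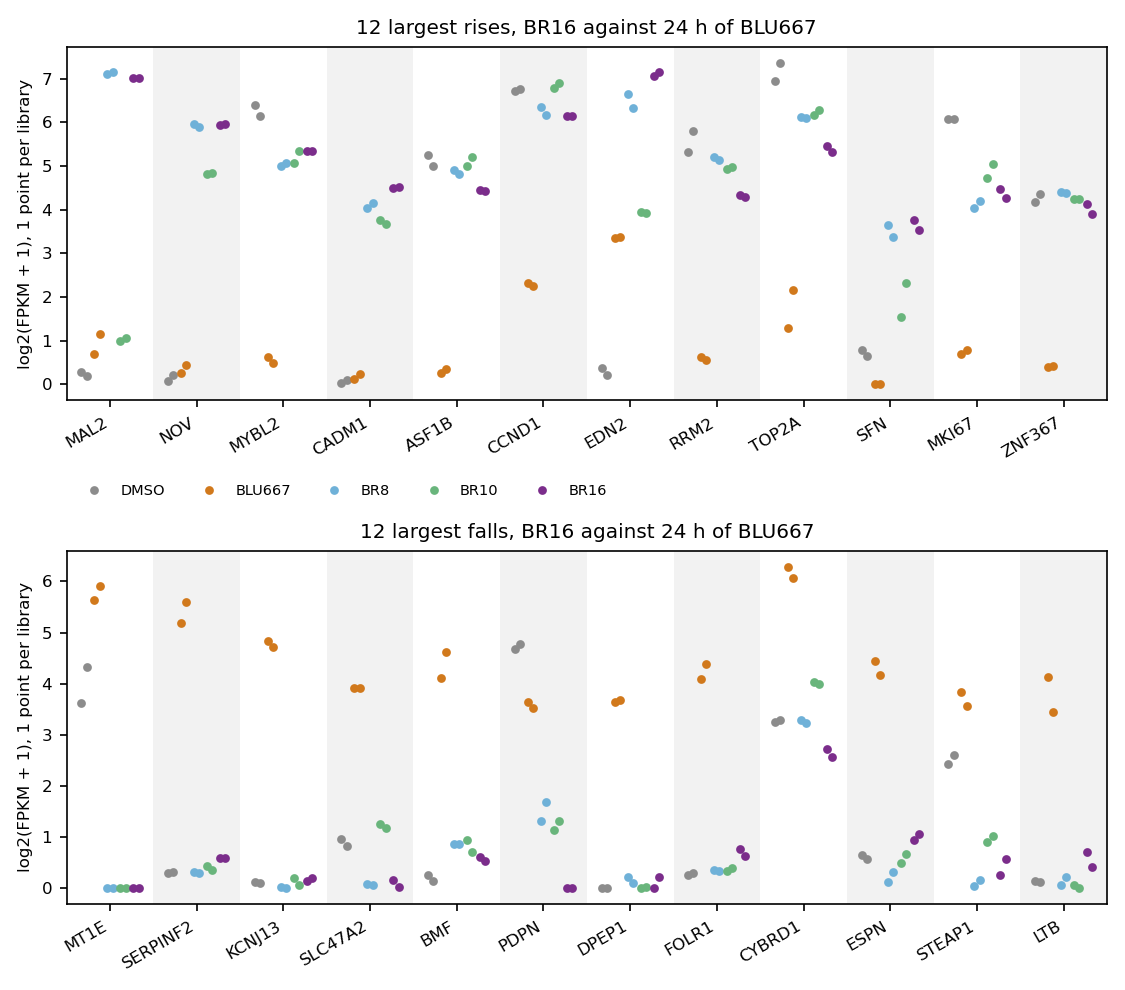
Level in each of the 10 libraries (points; y axis, log2 of FPKM + 1) for the 12 largest rises (upper) and the 12 largest falls (lower) from 24 h of BLU667 to BR16 among named genes, coloured by group. In the upper panel genes such as MYBL2 and MKI67 are also high in DMSO while MAL2, NOV, CADM1 and EDN2 are not, and in the lower panel most genes are high at 24 h alone, with MT1E and PDPN also present in DMSO.

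Among receptor tyrosine kinases other than RET, 16 of 29 were described, 6 higher and 6 lower (6 and 10 with the GC trend removed). EGFR, the receptor of epidermal growth factor, had 18.8 and 19.6 in DMSO, 63.1 and 59.1 after 24 h and 161 and 161 in BR16 (1.38 ± 0.07, limma adjusted p = 2.90e-06), so it was already above DMSO at 24 h and higher again in BR16, and it overlaps EGFR-AS1. AXL, a receptor that binds GAS6, had 92.0 and 104 after 24 h and 165 and 162 in BR16 (0.74 ± 0.10). PDGFRB fell from 11.8 and 15.4 to 1.53 and 1.28 (-2.59 ± 0.14), FGFR4 from 19.4 and 20.8 to 3.80 and 3.79 (-2.14 ± 0.11), and MET, the receptor of hepatocyte growth factor, from 59.9 and 56.8 to 38.3 and 37.8 (-0.60 ± 0.10). PDGFRB is also 1 of 3 described fibroblast markers of 9, of which 1 was higher and 2 lower in BR16 (0 and 2 with the GC trend removed). The summed FPKM of all 9 markers was 24.8 to 28.4 after 24 h and 3.77 to 4.23 in BR16. FAP, COL1A2 and DCN were at 0 in all 4 libraries.

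Ligands for such receptors had 8 of 16 described members higher and 4 lower. PDGFB, a ligand of PDGFRB, had 0.932 and 0.673 in DMSO, 3.41 and 4.15 after 24 h and 28.2 and 27.1 in BR16 (2.59 ± 0.11). GAS6, which overlaps GAS6-AS1, had 10.6 and 10.9 after 24 h and 27.6 and 31.1 in BR16 (1.37 ± 0.15, or 0.91 with the GC trend removed), so that this ligand and its receptor AXL were both higher. VEGFC fell (-1.35 ± 0.12). Inside the cell, 9 of 18 described negative regulators of RAS and PI3K signalling were lower and 3 higher. CBLB, a ubiquitin ligase for receptors, went from 4.58 and 4.69 to 0.823 and 0.749 (-1.66 ± 0.11), and NF1, a brake on RAS, from 7.60 and 7.49 to 3.4 and 3.06 (-1.02 ± 0.10). NF1 overlaps other genes.

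Some cytokine genes were higher in BR16, while their lists changed in both directions. Of 20 described genes of the IL6, JAK and STAT group 9 were higher and 7 lower (7 and 6 with the GC trend removed). Of 17 described NF-kB targets and cytokines 7 were higher and 2 lower (5 and 2 with the GC trend removed). Of these 17, 3 reached the filter through 1 group alone, so their direction was fixed. Among all described genes 33.8% were higher and 28.5% lower. IL6 had 0.860 and 0.764 in DMSO, 3.51 and 2.17 after 24 h and 22.3 and 19.2 in BR16 (2.52 ± 0.16). TNF had 0.0322 and 0, 1.56 and 1.06 and 10.7 and 9.38 (2.26 ± 0.14), and the chemokine CCL2 had 3.37 and 3.44, 18.4 and 12.8 and 50.9 and 51.3 (1.67 ± 0.15). All 3 thus climbed in order from DMSO to 24 h to BR16 with no overlap between groups. CXCL8 was at 18.2 and 7.82 after 24 h and 11 and 8.97 in BR16 and did not pass the test, but the difference was -0.82 (limma adjusted p = 0.0199) without the second 24 h library. LIFR, the receptor of LIF, fell from 20.4 and 25.0 to 8.05 and 8.36 (-1.36 ± 0.12) while LIF rose. Genes of MHC class I antigen presentation had 10 of 15 described higher and 0 lower (9 and 3 with the GC trend removed), with the largest rises for PSMB10, an immunoproteasome subunit (1.30 ± 0.22), and TAP2, a peptide transporter (1.14 ± 0.12).

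Genes of the pericellular plasminogen and metalloprotease system had 9 of 15 described members higher and 4 lower. PLAU, the activator urokinase, had 176 and 173 in DMSO, 52.2 and 58.9 after 24 h and 189 and 182 in BR16 (1.72 ± 0.09), and PLAUR, its receptor, had 11.1 and 9.26, 2.57 and 2.96 and 9.95 and 10.8 in the same order (1.6 ± 0.11). In BR16 activator and receptor were thus near their untreated level. MMP7, matrilysin, was at 0 in DMSO, 0.563 and 0.718 after 24 h and 3.05 and 3.25 in BR16 (1.34 ± 0.11). MMP2, gelatinase A, fell from 119 and 119 to 15.4 and 12.7 (-3.00 ± 0.10), below its DMSO values of 21.8 and 20.4, and TIMP2, which takes part in MMP2 activation, from 229 and 215 to 72.8 and 71.9 (-1.61 ± 0.07).

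RefSeq promoters matched 11 of the 15 described protease genes. The AP-1 motif TGANTCA, searched on both strands of the same windows, was in 4 of them (ADAMTS12, F3, MMP7 and PLAUR, 36.4%), against 6.99% of described genes, 9.37% of all genes and 0 of the 28 matched S phase and mitosis genes. The ERK-induced and FOXO-induced lists each had it in 1 of 9 matched genes (11.1%). All 4 protease genes with the motif rose, but so did 9 of the 15 described, and MMP7 reached the filter through BR16 alone. Whether the motif goes with the rise was not tested. The stretches of PLAUR and MMP7 are shown as examples. Capitals mark the motif.
PLAUR, chr19:43670170-43670369, minus strand: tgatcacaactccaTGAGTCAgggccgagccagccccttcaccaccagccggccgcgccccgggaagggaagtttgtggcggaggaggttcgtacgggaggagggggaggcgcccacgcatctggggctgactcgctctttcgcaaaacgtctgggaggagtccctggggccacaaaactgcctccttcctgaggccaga
MMP7, chr11:102530748-102530947, minus strand: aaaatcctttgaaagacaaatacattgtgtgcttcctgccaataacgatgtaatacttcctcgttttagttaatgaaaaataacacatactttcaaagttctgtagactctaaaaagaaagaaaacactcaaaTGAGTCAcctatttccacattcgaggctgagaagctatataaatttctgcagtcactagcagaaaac
Each stretch holds 1 match, far from the start in PLAUR and close to it in MMP7.

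Matrix genes changed in both directions. Of 27 described collagens, laminins and matrix glycoproteins 12 were higher and 8 lower, but 9 were higher and 11 lower with the GC trend removed, when the median went from 0.31 to -0.14. LAMB3, a laminin beta chain, which overlaps MIR4260, rose from 26.3 and 24.8 to 96.2 and 92.6 (1.85 ± 0.14). ITGA3, a subunit of the laminin receptor on epithelial cells, had 152 and 114 in DMSO, 18.2 and 14.3 after 24 h and 141 and 141 in BR16 (3.05 ± 0.16). Of the integrins, 7 of 11 described integrin subunits were higher and 2 lower. TGFBI, a matrix protein induced by TGF-beta, rose (2.02 ± 0.24), while COL5A2 (-1.81 ± 0.09) and SPP1, osteopontin (-1.36 ± 0.12), fell.

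Epithelial and mesenchymal genes each moved in both directions. Of 18 epithelial genes 6 were described, 4 higher and 1 lower, and the defining adhesion genes CDH1 and EPCAM were not described. KRT8 and KRT18, the simple keratins, which overlap each other, rose by 1.82 and 1.80, CLDN1, a tight junction protein, by 1.93, and TJP1, another junction protein, fell from 78.1 and 67.6 to 24.4 and 25.1 (-1.52 ± 0.10). Mesenchymal genes had 4 of 13 described higher and 5 lower (2 and 6 without the first 24 h library or the first BR16 library). SNAI1, a repressor of CDH1, fell from 24.4 and 20.3 to 5.40 and 5.55 (-1.84 ± 0.13), and so did CDH2, N-cadherin (-1.07 ± 0.09), whereas TAGLN, a smooth muscle actin-binding protein that overlaps PCSK7, rose from 0.798 and 1.18 to 12.2 and 12.9 (2.78 ± 0.11). KRT80 rose from 9.33 and 10.9 to 85.8 and 85.0 (2.96 ± 0.10) and S100A6, a calcium-binding protein, from 155 and 149.8 to 675 and 698 (2.16 ± 0.18).

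TGF-beta genes had 10 of 19 described lower and 5 higher. TGFB1, the ligand, had 42.5 and 32.8 in DMSO, 172 and 124 after 24 h and 39.2 and 35.7 in BR16 (-1.94 ± 0.17), and it overlaps HNRNPUL1. TGFBR2, its receptor, had 120.5 and 136, 99.5 and 97.3 and 44.3 and 43.4 (-1.15 ± 0.08), so the ligand was near its untreated level and the receptor was below it. Notch genes had 8 of 11 described higher and 1 lower (6 and 3 with the GC trend removed), led by the target HES4 (3.12 ± 0.30) and the ligand JAG2 (1.99 ± 0.13). Of 15 described Wnt genes 8 were higher and 3 lower, and the ligand WNT7B rose from 5.83 and 5.79 to 40.9 and 41.2 (2.63 ± 0.16). YAP and TAZ genes were evenly split, 9 of 24 higher and 9 lower (9 and 13 with the GC trend removed), with CYR61 higher (1.43 ± 0.11) and TGFB2 lower (-1.11 ± 0.10).

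**Figure D4:**
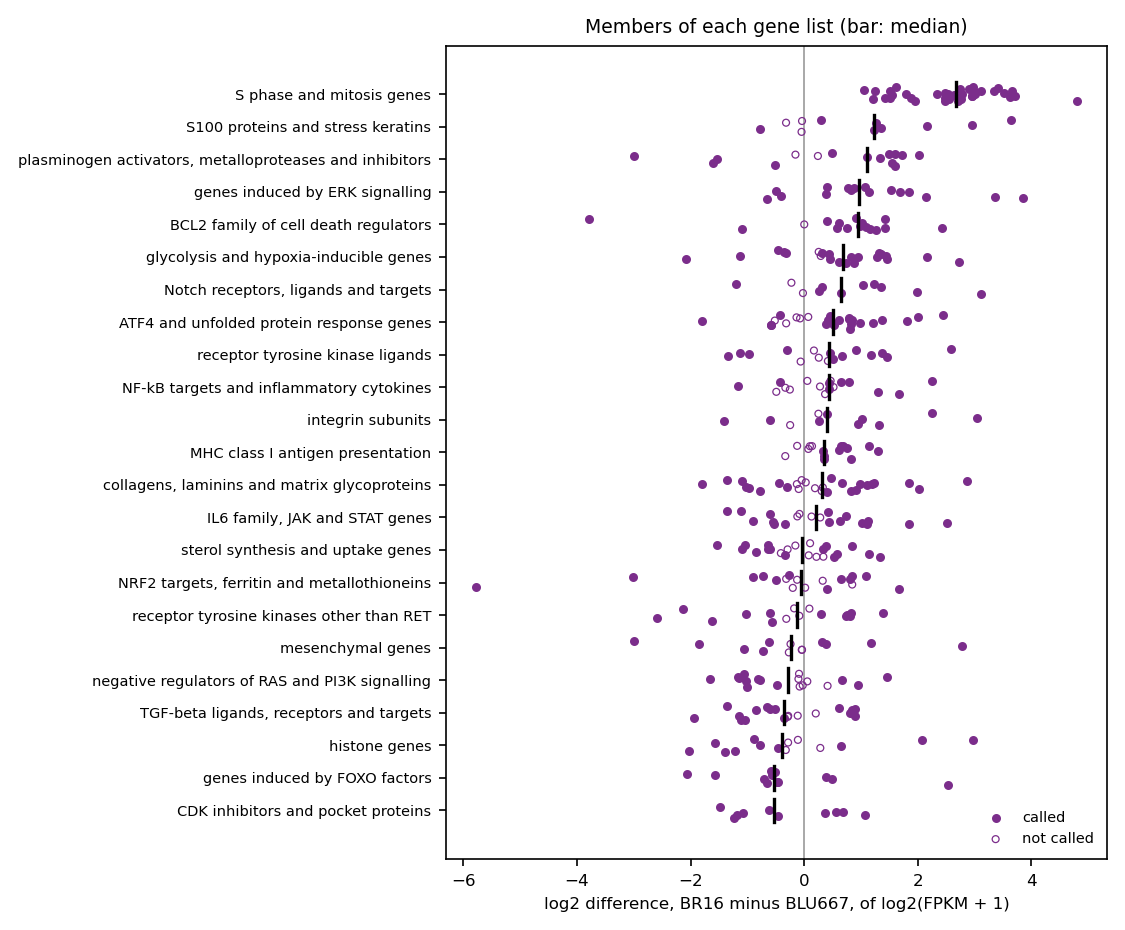
Log2 difference between BR16 and 24 h of BLU667 (x axis, log2 of FPKM + 1) for every described member of 23 gene lists, 1 point per gene, filled where the gene was called and open where it was not, with black bars for list medians. S phase and mitosis genes lie wholly to the right with a median of 2.67, CDK inhibitors and FOXO-induced genes have medians of -0.54, and most other lists straddle 0.

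Among metabolic genes, of 22 described genes of glycolysis and the hypoxia response 15 were higher and 5 lower than at 24 h (14 and 3 without the first BR16 library, 12 and 2 without the second), but against DMSO 3 were higher and 15 lower. LDHA, lactate dehydrogenase, had 410.2 and 451 in DMSO, 108 and 104 after 24 h and 197 and 194 in BR16 (0.88 ± 0.08), and overlaps AC084117.1. SLC16A3, the lactate exporter MCT4, which overlaps CSNK1D, had 40.2 and 27.8, 4.38 and 3.62 and 31.6 and 32.0 (2.72 ± 0.26), so the exporter was near its untreated level and the enzyme below it. HK2, hexokinase 2, was higher (1.46 ± 0.10) and NDRG1, a hypoxia-induced gene, lower (-2.08 ± 0.11). ATF4 and unfolded protein response genes had 17 of 26 described higher and 4 lower. CHAC1, a glutathione-degrading enzyme, rose from 0.386 and 0.531 to 6.76 and 7.15 (2.45 ± 0.19) and MTHFD2, of mitochondrial folate metabolism, from 7.96 and 7.89 to 30.9 and 29.8 (1.81 ± 0.10), while HERPUD1, of protein degradation in the endoplasmic reticulum, fell from 102 and 103 to 28.7 and 29 (-1.80 ± 0.07).

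Sterol synthesis genes (7 of 22 described higher and 8 lower) and NRF2 targets with ferritin and metallothioneins (6 of 18 higher and 6 lower) had shares close to those of all described genes. FDFT1, squalene synthase, fell from 21.0 and 19.3 to 6.10 and 6.53 (-1.53 ± 0.07), and AKR1C3, an aldo-keto reductase, from 28.6 and 36.3 to 3.51 and 2.79 (-3.01 ± 0.14). Among drug and lipid exporters ABCB1, P-glycoprotein, rose from 2.06 and 2.46 to 5.21 and 5.24 (0.94 ± 0.09) and ABCA1, a cholesterol exporter, fell from 23.6 and 27.7 to 6.57 and 6.96 (-1.78 ± 0.10). Of the thyroid factors PAX8, which overlaps PAX8-AS1, rose from 40.0 and 35.8 to 93.6 and 94.7 (1.29 ± 0.16) and GLIS3 fell from 34.6 and 34.9 to 14.3 and 14.7 (-1.20 ± 0.07). FOXE1, which maintains thyroid identity, was higher by 0.62 ± 0.11, and by 0.20 (limma adjusted p = 0.132) with the GC trend removed.

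BR16 was then set against the mean of BR8 and BR10, a contrast that tests whether its distance from the 24 h cells differs from theirs, since the 24 h libraries cancel. It differed in 6743 of the described genes (52.7%), 3466 higher (27.1%) and 3277 lower (25.6%), and by at least 2-fold in 833 (6.51%), of which 741 (5.79%) were higher and 92 (0.719%) lower. Over all genes tested these shares were 50.2%, with 25.1% higher and 25.1% lower, and 6.25%, with 5.33% higher and 0.919% lower. Which direction held more of the changed described genes depended on the setting. Quantile normalization gave 3140 higher and 3886 lower, and leaving out the DMSO libraries gave 3714 and 3758. With the GC trend removed the 2-fold count was 346, with 260 higher (75.1% of it, against 89.0%) and 86 lower. With the first or the second BR16 library left out, the count of changed genes was 4115 or 3666. The median difference climbed with GC content from -0.32 to 0.77, and the part of GC in the count was not tested.

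Of genes higher in BR16 than in the 24 h cells and in each other colony, those with the largest smaller distance to BR8 and BR10 were BGN, COL4A4, LRFN4, TMEM141, SERF2 and COL18A1. COL4A4, a chain of basement membrane collagen IV, had 0.874 and 1.15 after 24 h, 20.7 and 21.4 in BR16, 3.11 and 2.19 in BR8 and 2.87 and 3.02 in BR10, a difference from the other colonies of 2.55 ± 0.11 (limma adjusted p = 1.61e-05). BGN, the matrix proteoglycan biglycan, had 1.64 and 2.06, 20.3 and 19.0, 1.07 and 1.33 and 3.23 and 2.86 in that order (2.79 ± 0.10). Both were low in all libraries but those of BR16. LRFN4, a synaptic adhesion protein that overlaps PC, had 4.40 and 1.81 after 24 h, 19.9 and 20.6 in BR16, 2.37 and 1.45 in BR8 and 1.55 and 2.82 in BR10 (2.83 ± 0.29), but its DMSO values of 17.5 and 11.4 were near those of BR16. COL18A1, the source of endostatin, which overlaps SLC19A1, had 24.1 and 18.4, 40.3 and 40.5, 6.28 and 4.56 and 5.76 and 7.62 (2.57 ± 0.19), and its rise over the 24 h cells of 0.91 ± 0.22 was 0.26 (limma adjusted p = 0.056) with the GC trend removed and 0.73 (limma adjusted p = 0.0626) without the second 24 h library. With the GC trend removed the differences of LRFN4 and COL18A1 from the other colonies were 1.74 and 1.56. TMEM141 differed by 2.63 ± 0.20 and SERF2 by 2.45 ± 0.25 from the other colonies.

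Genes lower in BR16 than in all of these groups were led by PDPN, described above, MALT1, CARD6, PCLAF, ME1 and MILR1. MALT1, a scaffold and protease of NF-kB signalling that overlaps AC104971.1, had 26.9 and 25.2 after 24 h, 5.18 and 4.96 in BR16, 14.2 and 15.3 in BR8 and 11.7 and 11.8 in BR10 (-1.22 ± 0.09). CARD6, another gene of that signalling, had 3.56 and 3.18, 0.448 and 0.666, 4.09 and 3.79 and 2.90 and 2.85 (-1.49 ± 0.09), so BR16 was the lowest group for both. PCLAF, a partner of the replication clamp PCNA, was the single gene of DNA replication among them, at 4.17 and 4.47 in BR16 against 10.5 and 10.7 after 24 h, 12 and 10.1 in BR8 and 10.8 and 10.2 in BR10 (-1.15 ± 0.15 from the other colonies). ME1, malic enzyme, differed by -1.13 ± 0.08 from the other colonies and by -0.28 ± 0.09 from the 24 h cells, the latter -0.05 (limma adjusted p = 0.466) with the GC trend removed. MILR1, an inhibitory receptor, differed by -1.76 ± 0.09 from the other colonies and by -0.34 ± 0.10 from the 24 h cells, a call that was lost when the first or the second BR16 library was left out.

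Several genes that rose in BR16 also set it apart from the other colonies. EGFR was at 96.8 and 97.5 in BR8 and 49.3 and 51.8 in BR10, below both BR16 libraries (1.19 ± 0.06, limma adjusted p = 3.52e-05). CCL2 was at 20.5 and 17.5 in BR8 and 5.67 and 5.99 in BR10 (2.16 ± 0.13), and FJX1, a secreted YAP target, was at 17.0 and 13 in BR8 and 13 and 14.5 in BR10, against 71.5 and 74.0 in BR16 (2.27 ± 0.11). S phase and mitosis genes, by contrast, were mostly lower in BR16, with 22 of 36 lower and 1 higher (median -0.39, against -0.02 for all described genes). NRF2 targets had 11 of 18 lower and 3 higher, and sterol genes 12 of 22 lower and 4 higher. Among all described genes 25.6% were lower and 27.1% higher. As this contrast moved with GC content (medians from -0.32 to 0.77 over the bins), the part of GC in these list counts was not tested. The NRF2 target TXNRD1, thioredoxin reductase, was at 33.3 and 33.5 in BR16, 60.1 and 61.5 in BR8 and 178 and 177 in BR10 (-1.61 ± 0.10), and overlaps a pseudogene.

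Gene differences also followed chromosomes. The 473 described genes of chromosome 8 had a median log2 difference between BR16 and the 24 h cells of -0.40, and of -0.39 with the GC trend removed, with 51.0% lower and 18.8% higher against 28.5% and 33.8% of all described genes. The other chromosomes had medians from -0.09 to 0.37, or -0.06 to 0.14 with the GC trend removed. BR8 and BR10 gave -0.37 and -0.39 for chromosome 8 against the same 24 h libraries, BR16 gave -0.42 against DMSO, and the 24 h cells gave -0.03 against DMSO. Windows of 10 Mb along chromosome 8 with at least 20 described genes had medians of -0.25 to -0.75, or -0.13 to -0.68 with the GC trend removed, except the one from 140 to 150 Mb, whose 77 genes had 0.22, or -0.23 with the GC trend removed. The lowest were from 30 to 40 Mb (-0.75) and from 90 to 100 Mb (-0.71, or -0.52 with the GC trend removed). MAL2 (119165034 to 119245673 in GRCh38) and NOV (119416306 to 119424353) lie close together on chromosome 8 as well and were among the largest rises. The 778 genes of chromosome 19 had a median of 0.37, which was 0.07 with the GC trend removed. Against the other colonies, chromosome 7 windows between 20 and 50 Mb and from 60 to 70 Mb had medians of -0.40 to -0.62, and -0.35 to -0.56 with the GC trend removed. Windows between 120 and 160 Mb of the same chromosome stood higher than in the other colonies, at 0.25 to 0.42, and so did those between 210 and 250 Mb of chromosome 2, at 0.29 to 0.48 (0.32 to 0.44 and 0.24 to 0.49 with the GC trend removed). These windows were chosen after their values were seen. DNA copy number was not analysed here.

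**Figure D5:**
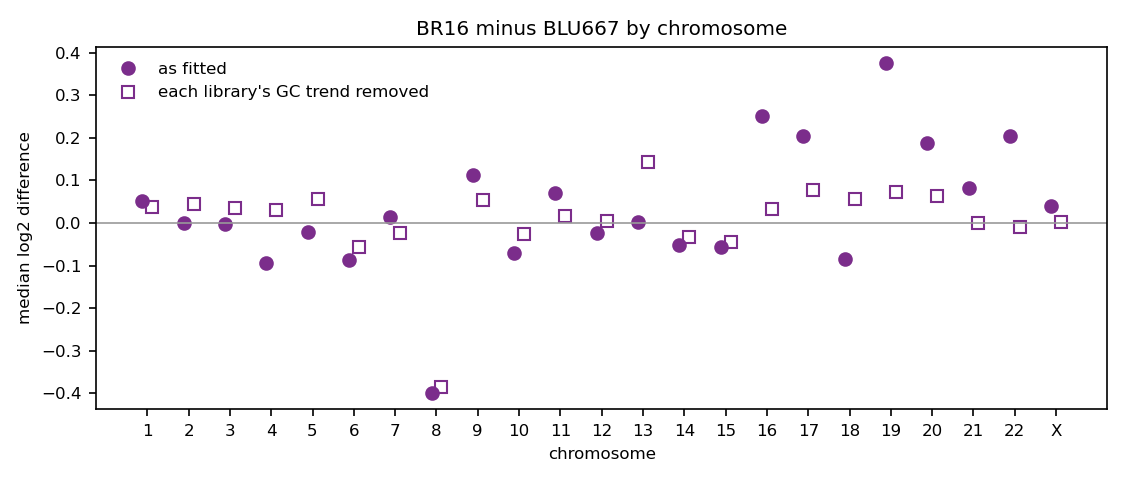
Median log2 difference between BR16 and 24 h of BLU667 (y axis) over the described genes of each chromosome (x axis), as fitted (filled circles) and with each library's GC trend removed (open squares). Chromosome 8 stands lowest at -0.40 and -0.39, while chromosome 19 drops from 0.37 to 0.07 when the GC trend is removed.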

How the data were processed

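RNA of 10 libraries in 5 groups of 2 was depleted of globin transcripts and sequenced from non-directional libraries, per the labels. The values are FPKM per gene as deposited by the authors; the submitters' processing notes name CASAVA, STAR 2.5, HTSeq 0.6.1, DESeq2 2 and GRCh38, but no annotation release. FPKM times gene length gave whole reads (within 0.05), so the depths above are known. Genes with an FPKM of at least 1 in at least 2 of the 10 libraries (13927 of 58735) were fitted with limma 3.58.1 (R 4.3.3) after log2(FPKM + 1) transformation, letting the variance follow the mean, all 5 groups in 1 model (5 residual degrees of freedom) and Benjamini-Hochberg adjustment over all of them. A planned count test gave way to this one because the deposited unit is FPKM; limma with voom on the recovered reads is an alternative. GC content came from GENCODE 29 (13923 of the 13927 genes), and its loess trend (span 0.3) was removed per library as another. In simulated data of 13154 genes the test recovered 39 of 97 genes changed 2-fold and 81 of 91 changed 4-fold, none with the wrong sign, and made 9 false calls. The simulation had an assumed spread between libraries, no GC trend and far fewer changed genes than the real data. Its rates therefore need not hold for the real comparison. Genes named are the 12 largest rises and 12 largest falls among called protein-coding genes with a mean FPKM of at least 2 and no overlap between the libraries of both groups, RET, CCDC6, TERT and CDKN2A, members of each list by size of change or to say what the list holds, and 6 genes in each direction that set BR16 apart from BR8 and BR10. The genes, lists and rules were chosen with earlier results of these data known. Results for some items are not reported here.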

Additional observations from a re-analysis of the deposited data

Results flagged for a closer look

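The difference between BR16 and the mean of BR8 and BR10 is the test of whether BR16 lies at another distance from the 24 h cells than the other colonies do, and it was past the limma threshold for 6743 described genes, of which 833 differed by at least 2-fold. Among genes named above, MAL2 (2.94) and EDN2 (1.90) were higher in BR16 on the log2 scale than that mean, which for MAL2 joins a high BR8 with a low BR10. LRFN4 (2.83), BGN (2.79), TMEM141 (2.63), COL18A1 (2.57), COL4A4 (2.55) and SERF2 (2.45) were higher in BR16 than in each of the other colonies. MILR1 (-1.76), CARD6 (-1.49), PDPN (-1.36), MALT1 (-1.22), PCLAF (-1.15) and ME1 (-1.13) were lower than in each.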

How the results depend on the processing

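The count of genes that differed between BR16 and the 24 h cells ran from 5709 (FPKM of at least 5) to 8519 (without the DMSO libraries) over the alternatives, and from 6326 to 6888 when 1 of its libraries was left out. The count at 2-fold or more ran from 1779 (FPKM of at least 5) to 3411 (voom on recovered reads), and from 2271 to 2431 with 1 library left out. The setting with an FPKM of at least 5 held 8352 genes, against 12801 in the main test, so its lower counts are not lower shares. Scaling anew by the median of ratios gave the same counts as the deposited scale in each comparison, so it was no separate check of the scaling. For BR16 against BR8 and BR10 the count was 4940 with the GC trend removed, and 3666 to 6058 with 1 library left out, lowest without the BR16 libraries (4115 and 3666), which leave that group with 1 library assumed to vary like the others. Its 2-fold count, an alternative set chosen after seeing the data, was 346 with the GC trend removed, 1476 and 1338 with pseudocounts of 0.1 and 0.25, and 1545 with voom. Same-numbered libraries of BR16 and the 24 h cells deviated together at a correlation of 0.004 over genes (-0.163 to 0.109 over all pairs of groups), so the numbers pair nothing; with the replicate number as a block the counts were 7701 and 2347 against the 24 h cells and 6285 and 833 against the colonies. Leaving out a 24 h library cannot change the comparison of colonies in its means, and its effect on those calls was not counted. Some named genes lost their call against the 24 h cells when 1 library was left out. With either BR16 library or the first 24 h library left out these were ME1 (-0.23 to -0.28), MILR1 (-0.30 to -0.36) and IER3 (-0.34 to -0.41). With either BR16 library or the second 24 h library left out they were SPRY2 (0.26 to 0.42) and EPHA4 (-0.32 to -0.50). The call of MILR1 was also lost with voom on recovered reads (-0.50, limma adjusted p = 0.112). In simulated data 39 of 97 changes at 2-fold and 81 of 91 at 4-fold were recovered, but far fewer genes changed there than here. The share of real changes missed was not measured.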

Other observations

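Histone genes had 3 of 14 described members higher and 7 lower in BR16 than after 24 h of BLU667. H2AFX, the histone variant marked at DNA breaks, had 197 and 191 in DMSO, 9.64 and 8.45 after 24 h and 78.2 and 78.1 in BR16 (2.98 ± 0.23), and H2AFZ rose by 2.07 ± 0.09. HIST1H1C, a linker histone, went the other way, from 126 and 143 after 24 h to 31.7 and 32.7 (-2.02 ± 0.14), with 7.31 and 10.3 in DMSO. Histone genes have near-identical copies among which reads can be split.

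Lysosome and autophagy genes had 11 of 25 higher and 7 lower (8 and 9 with the GC trend removed), and 7 and 4 without the second BR16 library. The protease gene CTSD had 27.3 and 19.1 after 24 h and 87.2 and 82.8 in BR16 (1.85 ± 0.27), with 18.1 and 10.8 in BR8 and 13.9 and 18.3 in BR10 (2.43 ± 0.23 from the other colonies), so it was high in BR16 alone among the colonies. Interferon-stimulated genes had 7 of 17 higher and 5 lower, with IFI44L at 2.64 and 2.42 after 24 h and 0.0120 and 0 in BR16 (-1.81 ± 0.13). Hedgehog genes had 1 of 5 higher, GLI2 (1.20 ± 0.11, or 0.77 with the GC trend removed), and 4 lower, led by GLI3 (-1.57 ± 0.09).

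The 13 protein genes of the mitochondrial genome had 2 higher and 1 lower in BR16 than in the 24 h cells, but 11 higher and 0 lower than in the other colonies (median 1.13). The 3 calls against the 24 h cells became 6 without the first 24 h library, 1 without the first BR16 library and 0 with no filter on low values. Ribosomal protein genes had 6 of 30 higher and 9 lower than at 24 h. Among gene classes, the 461 antisense genes had 78 higher and 155 lower (median -0.21) and the 377 long intergenic RNAs 98 and 123 (median -0.16), against a median of 0.08 for protein-coding genes. As the libraries are not strand-specific, reads of an antisense gene cannot be told from those of a gene it overlaps.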
